A study of Gallus gallus with 32 samples.

Results

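Blood gene expression was compared between 8 male and 8 female broiler chickens that all ate a standard control diet. These 16 birds were chosen by their sex and diet labels, out of 32 birds in the series, and each bird gave 1 array. The remaining birds, 8 males and 8 females, ate the standard diet supplemented with comfrey, a medicinal plant, and serve here only as a second set of birds. The tissue is labelled whole blood cells, and the protocol describes RNA extracted from ground frozen blood clots. The labels put the age at 32 with months as the unit, which is unusual for broilers, and age was not used. The broiler strain, the comfrey dose and the length of feeding were not stated in the labels used here.

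Birds have a ZW system of sex chromosomes, in which males are ZZ and females are ZW. W is small and holds few genes, most of which have a related copy on Z. Dosage compensation in chickens is incomplete, so many Z-linked genes give more RNA in males. Bird red cells keep their nucleus and remain in circulation beside thrombocytes, which are nucleated cells that serve in clotting, and white cells. In RNA from whole blood, fewer cells of a type and less RNA per cell cannot be told apart.

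Values are log2 probe set signals, so a difference of 1 is a doubling of signal, and all differences are male minus female. Array medians lay between 6.53 and 6.60, correlations between arrays lay between 0.953 and 0.982. Precision is limited by how many birds each sex had, and p-values set each difference against the spread between birds. The alpha globin genes HBAD and HBA1, which mark red cells, were bright in both sexes. HBAD averaged 13.87 ± 0.09 in males and 13.89 ± 0.05 in females, and HBA1 averaged 13.65 ± 0.11 in males and 13.69 ± 0.06 in females (SD, n = 8 each). The sex labels matched HINTW, a multicopy W-linked gene commonly used to sex chickens, in all 16 birds. The bird numbers in the sample titles were unevenly spread over the sexes: birds 1 to 16 held 2 control males and 6 control females, and birds 17 to 32 held 6 control males and 2 control females. The labels do not say what this number stands for.

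Sex divided the transcriptome mainly by chromosome. Of 17894 probe sets tested with limma, 388 (2.17%) were called at an adjusted p under 0.05, with 288 (1.61%) higher and 100 (0.559%) lower in males. An unadjusted p under 0.05 was met by 2183. The 8 males all lay above the 8 females in 176 probe sets (0.984%) and all below them in 55 (0.307%). Among probe sets with exactly 1 gene symbol, those on Z were called higher in 144 of 447 (32.2%) and lower in 4 (0.895%), and those on W were called lower in 8 of 16. Autosomal probe sets were called higher in 24 of 9772 (0.246%) and lower in 18 (0.184%), and 862 of the 9772 had an unadjusted p under 0.05. Another 170 called probe sets had no gene symbol, 114 higher and 56 lower in males, and after repeated rows were set aside they came to 83 and 47. Calls among probe sets with several symbols were 6 higher and 14 lower, and the 14 held only 3 different rows of values. These are not named here.

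The W-linked genes gave the largest differences. HINTW, which encodes a histidine triad protein, ranged from 4.87 through a median of 5.14 to 5.54 in males and from 11.65 through a median of 12.28 to 12.53 in females. It averaged 5.16 ± 0.24 in males and 12.23 ± 0.28 in females (SD, n = 8 each), a difference of -7.07 ± 0.13 (SE, limma adjusted p 9.37e-18). No male came near a female in this gene, and the male values lay in the lower part of the array's signal range. LOC430766, a W-linked gene named only by its identifier, ran from 4.46 (median 5.13) to 5.59 in males and from 10.78 (median 10.88) to 11.21 in females, a difference of -5.84 ± 0.14 (adjusted p 1.48e-15). LOC427025 averaged 4.23 ± 0.31 in males and 9.96 ± 0.18 in females at its brightest probe set. Its 4 probe sets were all called lower in males, with differences from -5.74 to -2.51.

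A pair of W-linked genes with known Z-linked relatives were also called. UBAP2L2, a relative of the ubiquitin-binding protein gene UBAP2, had male values from 4.99 (median 5.31) to 6.01 and female values from 8.17 (median 8.45) to 8.71, with a difference of -3.09 ± 0.12 (adjusted p 4.34e-12). ATP5F1AW, the W copy of the alpha subunit of ATP synthase, averaged 5.88 ± 0.31 in males and 7.25 ± 0.28 in females, and its difference was -1.37 ± 0.14 (adjusted p 6.64e-06). Neither gene had any overlap between the sexes. The Z copy, ATP5F1AZ, lay on the opposite side, at 8.53 ± 0.10 in males and 7.66 ± 0.18 in females, a difference of 0.87 ± 0.08 (adjusted p 1.85e-06). Within birds 1 to 16 and within birds 17 to 32, the differences of HINTW were -7.00 and -7.34 and those of ATP5F1AW were -1.40 and -1.46.

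**Figure D1:**
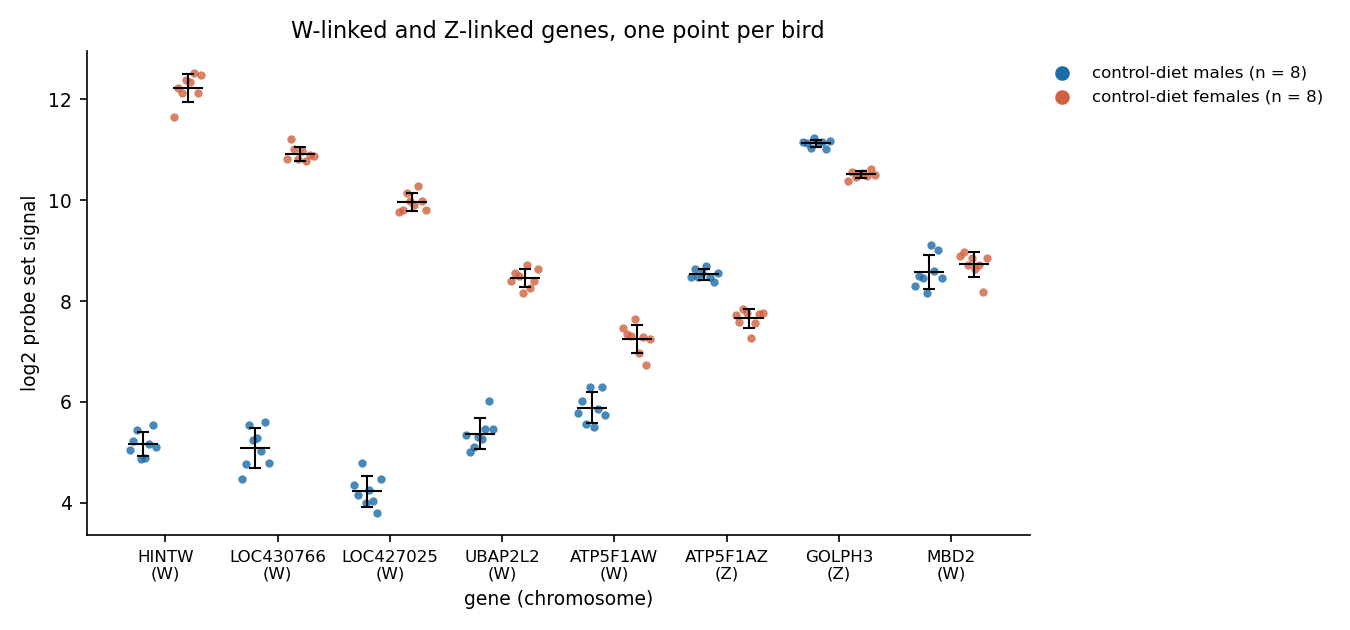
Log2 signal (vertical axis) of 6 W-linked and 2 Z-linked genes (horizontal axis), with 1 point per bird, males left of females, and black bars for the mean ± SD of 8 birds. HINTW, LOC430766, LOC427025, UBAP2L2 and ATP5F1AW lay lower in every male than in any female, ATP5F1AZ and GOLPH3 higher, while MBD2 overlapped.

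The other W-linked genes did not pass. MIR7B, a microRNA gene, averaged 4.45 ± 0.62 in males and 5.14 ± 0.30 in females, a difference of -0.70 ± 0.22 (adjusted p 0.159). Among comfrey-fed birds its difference was -1.29 and passed (adjusted p 0.00216). MBD2, placed on W in the gene table and encoding a reader of methylated DNA, averaged 8.57 ± 0.33 in males and 8.73 ± 0.25 in females, so birds without a W gave signal at this probe set too. LOC426615 and LOC426220 were likewise at 7.29 and 7.17 in males and at 7.45 and 7.14 in females, and NEDD4L, a ubiquitin ligase gene, was at 5.43 in males and 5.30 in females. Which transcripts these probe sets read was not tested. ST8SIA3L, LOC425347 and LOC427010 were dim in both sexes, with male means of 3.47, 2.55 and 2.21 and female means of 3.85, 2.62 and 2.48.

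Z-linked genes with a readable signal were higher in males as a group, by less than a doubling. The 207 Z-linked probe sets at or above the median signal of all probe sets (6.548) had a median difference of 0.56, a male to female ratio of 1.47, and 131 of them were called higher. The 5049 autosomal probe sets above the same signal had a median difference of -0.00055, and all tested probe sets had one of -0.016. The 240 dimmer Z-linked probe sets had a median difference of 0.041 and 13 higher calls. With all probe sets divided into 4 equal bins of signal, the Z-linked median was 0.018 in the dimmest bin, then 0.082, 0.42 and 0.60, and in the brightest bin 102 of 127 were called higher. Z-linked differences were larger in each brighter bin, while autosomal medians stayed between -0.019 and 0.0075 in all 4 bins.

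**Figure D2:**
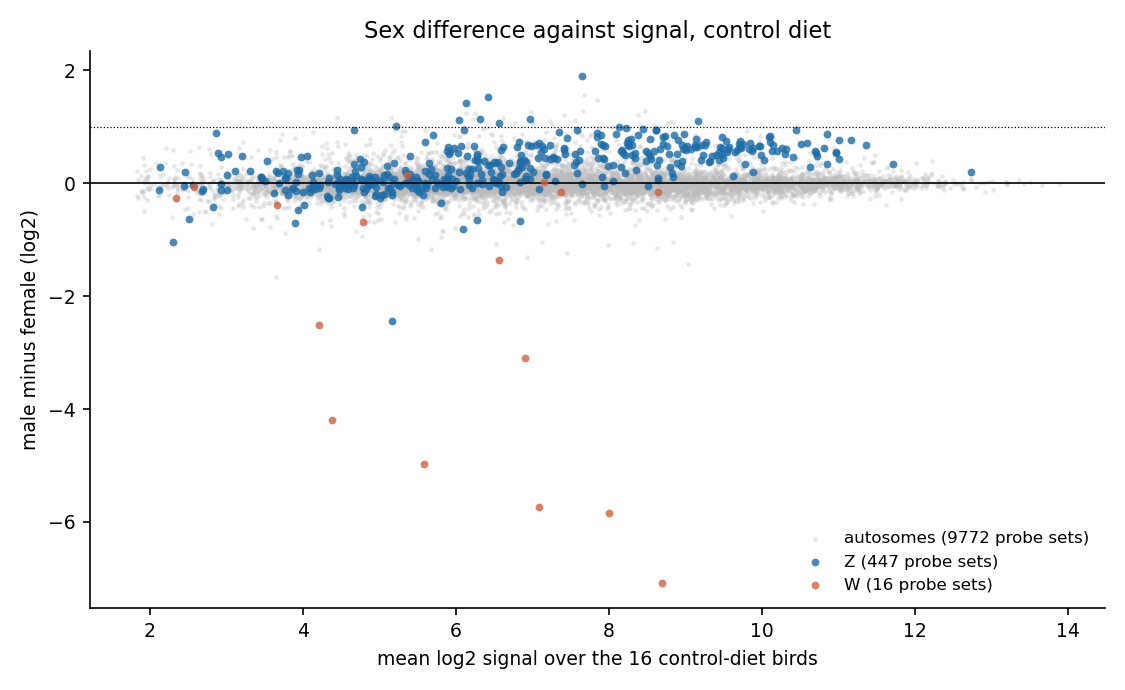
Male minus female difference (log2, vertical axis) against the mean log2 signal of the 16 birds (horizontal axis) for 9772 autosomal, 447 Z-linked and 16 W-linked probe sets, 1 point each, with a solid line at 0 and a dotted line at 1. Z-linked points lie around 0 at low signal and mostly between 0 and 1 at high signal, and the called W-linked points lie far below 0.

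The shift of Z was present in every bird. For each bird, the median signal of the brighter Z-linked probe sets was set against that of the brighter autosomal ones. The Z median exceeded the autosomal median in all 8 males, by 0.30 in bird 22 up to 0.47 in bird 3. It lay below the autosomal median in all 8 females, from -0.26 in bird 1 to -0.056 in bird 11. Within birds 1 to 16 the median difference of brighter Z-linked probe sets was 0.58, and within birds 17 to 32 it was 0.45.

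Counting each gene once by its brightest probe set, 425 Z-linked genes were measured and 203 were brighter. Of these 203, 127 were called higher in males, 165 had a 95% interval wholly above 0 and 91 had all males above all females. Differences were between 0.25 and 0.75 in 138 genes, under 0.25 in 35 and at 0.75 or more in 30, with quartiles of 0.36 and 0.68 beside a median SE of 0.10. The upper end of the interval lay under 1 in 175 genes, so a full doubling was outside their intervals. A difference over 1 was found in 3 genes, ALDH7A1, GZMA and PTCD2, named here after their values were seen. Of the 35 genes under 0.25, 25 were also under 0.25 among comfrey-fed birds. MicroRNA genes made up 5 of the 35. Of all 7 brighter Z-linked microRNA genes, these 5 lay under 0.25 and 1, MIR7-1, was called higher.

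The Z-linked genes with the largest called differences included some with broad spread between males. ALDH7A1, an aldehyde dehydrogenase of lysine breakdown, ran from 6.83 (median 9.06) to 9.35 in males and from 6.47 (median 6.76) to 6.84 in females, a difference of 1.90 ± 0.31 (adjusted p 0.00129). Birds 13 and 31 were at 7.34 and 6.83, and the other 6 males were at 8.71 or above. PTCD2, which acts in mitochondrial RNA processing, was tighter, at 7.54 ± 0.36 in males and 6.41 ± 0.14 in females, a difference of 1.13 ± 0.13 (adjusted p 2.43e-05). FUT10, a fucosyltransferase gene, averaged 6.89 ± 0.39 in males and 5.75 ± 0.31 in females, a difference of 1.14 ± 0.17 (adjusted p 0.000301). All PTCD2 males lay above all females, while 1 female, bird 5, reached into the male range of FUT10. Among comfrey-fed birds PTCD2 and FUT10 passed at 1.35 and 0.57, while ALDH7A1 did not pass at 1.18 (limma adjusted p 0.301).

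Close to a doubling without overlap were DCTN3, a dynactin subunit, SSBP2, a single-stranded DNA-binding protein, INIP, a subunit of a DNA repair complex, and ERAP1, which trims peptides for class I presentation. DCTN3 averaged 8.63 ± 0.23 in males and 7.63 ± 0.21 in females, a difference of 1.00 ± 0.11 (adjusted p 1.34e-05). SSBP2 was at 8.71 ± 0.19 in males and 7.73 ± 0.21 in females, with a difference of 0.97, and INIP was at 9.09 ± 0.23 in males and 8.15 ± 0.25 in females, with a difference of 0.94. ERAP1 was at 10.92 ± 0.37 in males and 9.97 ± 0.07 in females, and male bird 31 stood at 11.79 above the next male at 10.93.

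The other 3 of the top 10, HACD4, GDA and SNCAIP, had smaller differences when bird number ranges or thrombocyte markers entered the model. Bird numbers were uneven over the sexes, and the thrombocyte marker mean averaged 7.73 in males and 7.21 in females. In the control birds, the part of either in these genes cannot be told apart from that of sex. HACD4, of fatty acid elongation, averaged 7.18 ± 1.07 in males and 5.65 ± 0.51 in females, a difference of 1.53 ± 0.38 (adjusted p 0.0466). GDA, guanine deaminase, averaged 6.85 ± 0.75 in males and 5.42 ± 0.53 in females (1.43 ± 0.30, adjusted p 0.0116). SNCAIP, which encodes synphilin-1, averaged 6.61 ± 0.79 in males and 5.49 ± 0.32 in females (1.11 ± 0.28, adjusted p 0.0425). With the 2 ranges of bird numbers entered as a block in the model, the differences were 0.90, 1.01 and 0.61 and the adjusted p was 0.326, 0.132 and 0.279. With the thrombocyte marker mean of each bird as a covariate, they were 0.65, 0.76 and 0.54, and only GDA of the 3 passed (adjusted p 0.0174). When each bird was left out in turn, HACD4 and SNCAIP stayed called in 4 of 16 cases each, and GDA in all 16. The comfrey-fed birds had bird numbers spread evenly over the sexes. In them the differences of HACD4, GDA and SNCAIP were 0.85, 0.88 and 1.02, and only SNCAIP passed (limma adjusted p 0.18, 0.275 and 0.0455).

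Among genes of basic cell machinery, the counts of calls are read beside those of their chromosomes: 63.3% of all brighter Z-linked probe sets and 0.357% of all brighter autosomal ones were called higher. All 3 Z-linked cytosolic ribosomal protein genes were called higher, RPS23 at 0.72 ± 0.08, RPL17 at 0.69 ± 0.12 and RPL37 at 0.40 ± 0.07, against 0 of 30 autosomal ones, whose median difference was 0.028. RPS23 averaged 10.47 ± 0.13 in males and 9.75 ± 0.14 in females. All 5 Z-linked mitochondrial ribosomal protein genes were called higher, with a median of 0.66 and examples MRPS36 at 0.77 and MRPL50 at 0.66, against 0 of 35 autosomal ones, with a median of 0.014. Of 4 Z-linked genes of the respiratory chain and ATP synthase, 3 were called higher, COX7C at 0.94 ± 0.10, ATP5F1AZ at 0.87 and NDUFS4, of complex I, at 0.67 ± 0.13. None of 56 autosomal genes of that list was called, and their median was 0.010. In these 3 lists, 0 autosomal genes passed in limma, while 0, 1 and 7 had an unadjusted p under 0.05. Over all autosomal probe sets 862 of 9772 had one.

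Chaperone and cell division lists held a few more calls. Over all Z-linked probe sets 32.2% were called higher. Over all autosomal ones 0.246% were called higher and 0.184% lower. DNAJA1, an HSP40 co-chaperone on Z, averaged 11.70 ± 0.19 in males and 11.02 ± 0.18 in females (0.68 ± 0.10, adjusted p 0.00021), and DNAJC21 (0.63) and DNAJC25 (0.45) were the other called members among 5 on Z. Of 45 autosomal chaperone genes, 1 was called, DNAJB4, which was lower in males at 9.71 ± 0.14 against 10.06 ± 0.14 in females (-0.36 ± 0.08, adjusted p 0.0164). Of 4 Z-linked cell cycle genes, CDK7, a kinase of the transcription and cell cycle machinery, was called at 0.62 ± 0.08. CENPH and KIF2A were at 0.54 and 0.31 and did not pass. Of 62 autosomal cell cycle genes, 1 was called, KIF23. Of 23 autosomal proteasome genes limma called none. In that list 2 had an unadjusted p under 0.05, beside 862 of all 9772 autosomal probe sets.

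Among 12 Z-linked genes that have or had a W-linked partner, 6 were called higher, and the median of the 12 was 0.63. Over all Z-linked probe sets 32.2% were called higher with a median of 0.24. Over the brighter ones 63.3% were called higher with a median of 0.56. GOLPH3, a Golgi protein, averaged 11.13 ± 0.07 in males and 10.51 ± 0.07 in females (0.62 ± 0.06, adjusted p 1.62e-06). TXNL1, a thioredoxin relative, was at 9.12 ± 0.09 in males and 8.30 ± 0.17 in females, a difference of 0.82. RASA1 (0.94), BTF3 (0.78) and ZSWIM6 (0.64) were the other called members beside ATP5F1AZ. UBAP2 was at 7.29 ± 0.52 in males and 6.61 ± 1.03 in females, and its difference of 0.68 ± 0.37 was within the spread of the females (adjusted p 0.507). SUB1 (0.34), MIER3 (0.38), TNPO1 (0.27), CKMT2 (-0.12) and ZNF532 (-0.22) did not pass.

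Of 24 immune genes measured on Z, 4 were called higher and the median difference was 0.19, beside 144 of 447 and a median of 0.24 over all Z-linked probe sets. TLE4, a transcriptional corepressor, averaged 8.44 ± 0.15 in males and 7.88 ± 0.09 in females (0.56 ± 0.07, adjusted p 8.51e-05), without overlap. IL7R, the interleukin 7 receptor of lymphocytes, was at 8.26 ± 0.27 in males and 7.59 ± 0.34 in females (0.67 ± 0.15, adjusted p 0.0167). The prostaglandin receptor gene PTGER4 (0.45) and PIK3R1, a regulatory subunit of PI3 kinase (0.60), were called as well, and with the block of birds the last 3 no longer passed (adjusted p 0.0813 to 0.294). GZMA, a granzyme of cytotoxic cells, had male values from 5.32 (median 7.18) to 8.25 and female values from 5.66 (median 6.00) to 6.54, and its difference of 1.06 ± 0.31 did not pass (adjusted p 0.103). JAK2, a kinase of cytokine receptors, was at 12.84 ± 0.10 in males and 12.64 ± 0.05 in females (0.20, adjusted p 0.108), and was named after its value was seen.

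Of 2 erythroid genes on Z, 1 was called, beside 32.2% of all Z-linked probe sets. FECH, the last enzyme of haem synthesis, averaged 9.59 ± 0.14 in males and 9.11 ± 0.15 in females (0.48 ± 0.08, adjusted p 0.00134). HEMGN, an erythroid nuclear protein also linked to testis development in chicken, was at 8.08 ± 0.46 in males and 7.64 ± 0.42 in females (0.45 ± 0.20, adjusted p 0.384). No gene of the sex determination and sex steroid list was called, neither among 5 on Z (1 at an unadjusted p under 0.05) nor among 21 on autosomes (0 at an unadjusted p under 0.05). DMRT1, the Z-linked testis-determining gene of birds, was at 7.31 ± 0.09 in males and 7.28 ± 0.22 in females, and was named after its value was seen. MIR2954, a male-biased microRNA of birds, was not analysed here.

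The running median of the male excess varied along Z. With the 203 brighter genes set in chromosome order, the running median over 15 neighbours was lowest, at 0.29, in the stretch from UBAP2 to ZFR2, which also holds DCTN3, CNTFR and GOLPH3. In that stretch 5 of 15 genes were called and single differences ran from -0.073 to 1.00. It was highest, at 0.69, from ARRDC3 to RAD17, where 13 of 15 were called, among them RASA1, COX7C, RPS23 and SSBP2. In comfrey-fed birds the medians of the same genes were 0.31 and 0.81. These stretches were picked as the extremes of the running median and were not matched for signal, so they are a description. In the lowest stretch CNTFR, APH1AL and CCBE1, at mean signals of 6.66, 6.60 and 6.58, differed by -0.073, 0.29 and 0.12. UBAP1 and GOLPH3, at 10.69 and 10.82, differed by 0.57 and 0.62, while LOC768614, at 8.64, differed by 0.055. The running median was nearly as low elsewhere, at 0.2912 around CDC37L1 and JAK2, against 0.2889 in the lowest stretch. There JAK2 and CDC37L1, at mean signals of 12.74 and 8.06, differed by 0.20 and 0.042. SMARCA2 and DENND4C, at 10.41 and 9.71, differed by 0.46 and 0.65. These 4 genes were named after their values were seen. No gene of the highest stretch lay below 7.56. Place on Z was not tested apart from signal.

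**Figure D3:**
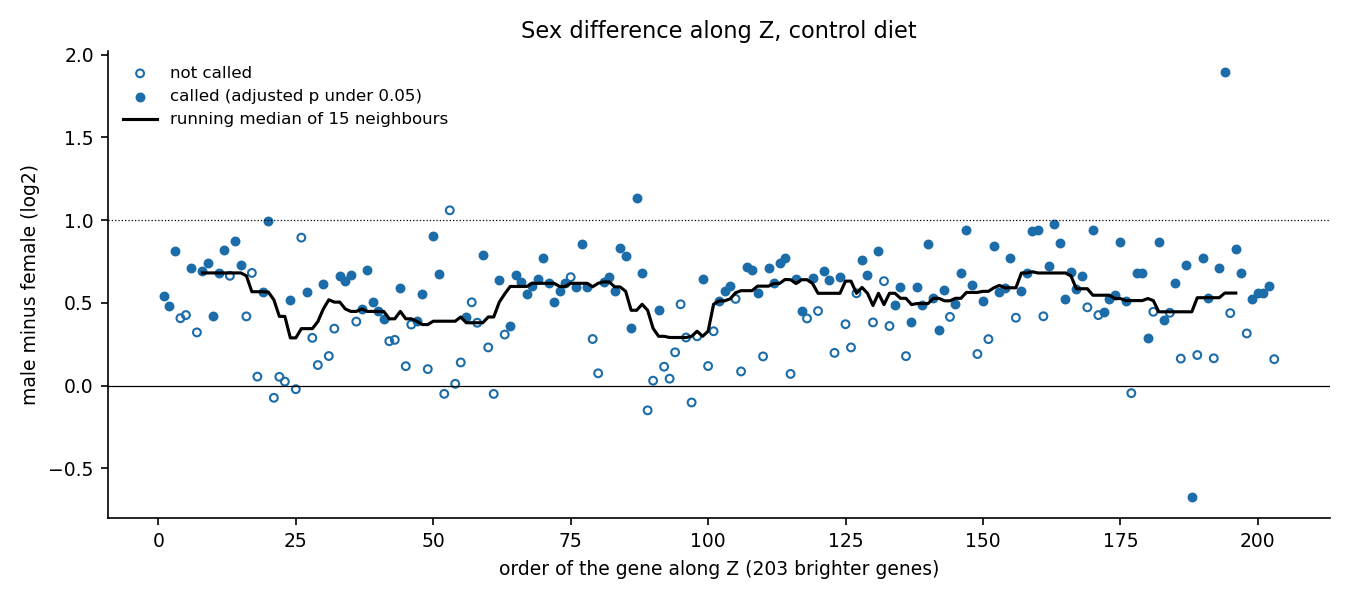
Male minus female difference (log2, vertical axis) of the 203 brighter Z-linked genes in their order along the chromosome (horizontal axis, no distances), filled where called and open where not, with the running median of 15 neighbours as a black line. The running median stays between 0.29 and 0.69, and most genes lie between the lines at 0 and 1.

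A few Z-linked genes were lower in males. LOC427353, placed on Z and known only by its identifier, averaged 3.94 ± 0.36 in males and 6.39 ± 0.44 in females, a difference of -2.45 ± 0.19 (adjusted p 1.29e-07). MCCC2, a subunit of an enzyme of leucine breakdown, was at 5.70 ± 0.27 in males and 6.50 ± 0.13 in females (-0.81 ± 0.11, adjusted p 0.000108). VLDLR, the lipoprotein receptor that takes yolk into the oocytes of hens, was at 5.95 ± 0.19 in males and 6.61 ± 0.20 in females (-0.66 ± 0.10, adjusted p 0.000491). None of the 3 overlapped between the sexes, and the mean over all birds lay below 6.548 in each. COMMD10 was at 6.51 ± 0.39 in males and 7.18 ± 0.26 in females (-0.67 ± 0.16, adjusted p 0.027), and it no longer passed with the block of birds (adjusted p 0.245). TMEM252, MIR1779, CNTFR, MIR1584 and MIR1631, the next lowest brighter Z-linked genes, lay between -0.15 and -0.05 and did not pass. The sign of CNTFR, MIR1584 and MIR1631 turned with the block of birds.

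Autosomal calls were few, and their number changed when single birds were left out. The adjusted p was taken over all probe sets tested, sex-linked ones included. The rate of false calls among autosomal probe sets alone was therefore not controlled, and it can be higher than that over all calls. The counts of 24 higher and 18 lower autosomal calls lay between 11 and 76 and between 8 and 21 when each bird was left out in turn. The higher calls came to 76 without male bird 3, and to between 11 and 15 without males 22, 27 or 29 or without females 1, 5, 7, 9 or 11. The lower calls came to between 8 and 10 without males 20, 22 or 31 or without females 5, 7, 15 or 23. Centring each array on its brighter autosomal probe sets gave 23 higher and 31 lower. With the block of birds there were 10 higher and 6 lower, of which 5 were among the original 42. All 42 kept their sign with the block and within each range of bird numbers. They had been selected in these same birds, so the kept sign is no separate support. Leaving out each bird was also followed gene by gene for 26 called autosomal genes, chosen by size, lack of overlap or list membership. Of these, 8 stayed called in every case: TIMP3, BAG3, CXorf40B, RALGPS1, ZSWIM8, RNF7, DNAJB4 and TTL. RALGPS1, ZSWIM8 and DNAJB4 were not among the 5 calls kept with the block of birds, while the rest of the 8 were. Among comfrey-fed birds RALGPS1, ZSWIM8 and DNAJB4 differed by -0.13, -0.09 and -0.29, and only BAG3 of the 8 was called.

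TIMP3, an inhibitor of matrix metalloproteinases on chromosome 1, had the lowest adjusted p of the higher autosomal genes named. It ran from 9.41 (median 9.85) to 10.41 in males and from 8.55 (median 9.13) to 9.39 in females, with no overlap and a difference of 0.83 ± 0.15 (adjusted p 0.00342). Within birds 1 to 16 and birds 17 to 32 its differences were 0.80 and 0.81. BAG3, a co-chaperone of HSP70 on chromosome 6, ran from 7.59 (median 8.17) to 8.83 in males and from 7.18 (median 7.29) to 7.68 in females, a difference of 0.76 ± 0.15 (adjusted p 0.0063). Only female bird 1 reached into the male range of BAG3, and the gene was also called among comfrey-fed birds, at 0.82. CXorf40B, on chromosome 4, averaged 10.49 ± 0.16 in males and 10.11 ± 0.12 in females without overlap (0.38 ± 0.08, adjusted p 0.0111). These 3 genes passed with the block of birds as well (adjusted p 0.0278, 0.033 and 0.0382). Among comfrey-fed birds TIMP3 and CXorf40B differed by 0.46 and 0.27 and did not pass (limma adjusted p 0.175 and 0.235).

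CYR61, a secreted matrix protein on chromosome 8, had the largest difference of the autosomal genes called higher. It ran from 6.51 (median 7.75) to 8.46 in males and from 6.00 (median 6.52) to 7.00 in females, a difference of 1.09 ± 0.26 (adjusted p 0.0302), and males 3 and 13 lay within the female range. TCF7L2, a transcription factor of Wnt signalling, was at 6.07 ± 0.52 in males and 5.12 ± 0.47 in females (0.94 ± 0.23, adjusted p 0.0366). HTR1B, a serotonin receptor, was at 7.32 ± 0.42 in males and 6.72 ± 0.18 in females (0.60 ± 0.15, adjusted p 0.0489). With the block of birds these 3 differences were 0.63, 0.56 and 0.36 and did not pass (adjusted p 0.213, 0.277 and 0.338). For HTR1B the difference was 0.057 within birds 1 to 16 and 0.65 within birds 17 to 32.

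Other autosomal genes called higher served in iron transport, protein export and RNA binding. SLC25A37, the mitochondrial iron importer mitoferrin, averaged 9.34 ± 0.44 in males and 8.62 ± 0.32 in females (0.72 ± 0.18, adjusted p 0.0438), and among comfrey-fed birds its difference was -0.003. It was the only called gene of 18 autosomal erythroid genes, whose median was -0.036, beside 0.246% of all autosomal probe sets called higher. IGF2BP3, an mRNA-binding protein, was at 6.90 ± 0.54 in males and 6.03 ± 0.36 in females (0.87 ± 0.21, adjusted p 0.0373), with male bird 31 highest at 8.04. SEC61A2, a subunit of the protein translocation channel, was at 6.99 ± 0.30 in males and 6.31 ± 0.34 in females (0.68 ± 0.15, adjusted p 0.021), and it passed among comfrey-fed birds at 0.83. CD69L (0.56 ± 0.14) and RGCCL (0.52 ± 0.12) completed the 10 largest.

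Without overlap but smaller were NCAPH, a condensin subunit, and KIF23, a kinesin of cytokinesis. NCAPH averaged 6.56 ± 0.22 in males and 6.17 ± 0.13 in females (0.39 ± 0.09, adjusted p 0.0355), and KIF23 averaged 5.85 ± 0.14 in males and 5.55 ± 0.06 in females (0.30 ± 0.07, adjusted p 0.0254). NCAPH stayed called in 8 and KIF23 in 11 of 16 cases when each bird was left out. Neither call was kept with the block of birds, and both mean signals lay below 6.548. Among comfrey-fed birds NCAPH and KIF23 differed by 0.20 and 0.076 and did not pass (limma adjusted p 0.493 and 0.826). Both act in dividing cells, and the list of 62 autosomal cell cycle genes, which held KIF23 and not NCAPH, had a median of 0.014. IFNGR1, a chain of the interferon gamma receptor, did not overlap either, at 10.72 ± 0.08 in males and 10.57 ± 0.06 in females, but its difference of 0.15 ± 0.06 did not pass (adjusted p 0.233).

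On the lower side, RNF7 and TTL were the most even. RNF7, a subunit of cullin ubiquitin ligases, ran from 10.24 (median 10.49) to 10.75 in males and from 10.77 (median 10.86) to 11.02 in females, a difference of -0.37 ± 0.07 (adjusted p 0.00785). TTL, tubulin tyrosine ligase, ran from 11.56 (median 11.66) to 11.81 in males and from 11.83 (median 11.97) to 12.10 in females, a difference of -0.28 ± 0.06 (adjusted p 0.0161). Neither overlapped, both passed with the block of birds (adjusted p 0.0199 and 0.0265), and their differences among comfrey-fed birds were -0.15 and -0.04. NOM1, a nucleolar protein, was at 7.80 ± 0.12 in males and 8.10 ± 0.10 in females without overlap (-0.30 ± 0.07, adjusted p 0.0227). SUGP2 (-0.30, adjusted p 0.0687) and SEC16A (-0.11, adjusted p 0.372) had all males below all females and did not pass.

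The largest negative autosomal difference was in PRICKLE1, of planar cell polarity. It ran from 6.16 (median 6.80) to 8.05 in males and from 7.00 (median 8.32) to 8.79 in females, a difference of -1.24 ± 0.29 (adjusted p 0.0251). Males 3 and 29 lay within the female range, and females 1 and 5 lay within the male range. Among comfrey-fed birds its difference was 0.18. GTSF1, of the piRNA pathway, averaged 5.33 ± 0.26 in males and 6.28 ± 0.63 in females (-0.95 ± 0.22, adjusted p 0.0294), and RALGPS1, an exchange factor for Ral, averaged 6.84 ± 0.28 in males and 7.57 ± 0.30 in females (-0.73 ± 0.14, adjusted p 0.00506).

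CR2, a complement receptor of B cells, was at 8.65 ± 0.38 in males and 9.25 ± 0.21 in females (-0.60 ± 0.15, adjusted p 0.0386). It was the only called gene of 12 B cell markers, beside 0.184% of all autosomal probe sets called lower. The median of the 12 was -0.040. The mean of the B cell list ran from 6.51 to 7.01 in males and from 6.66 to 6.96 in females. YES1, a kinase of the SRC family (-0.59), WAPL, which releases cohesin (-0.47), ZSWIM8, a ubiquitin ligase adaptor (-0.46), MIR1617 (-0.49) and SLC51A, a bile acid transporter subunit (-0.36), were the other named genes called lower. Others lost their call without some birds: CYR61 stayed called in 7 of 16 cases, CR2 in 4, PRICKLE1 in 10 and SLC25A37 in 5. WAPL was also called among comfrey-fed birds, at -0.63.

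**Figure D4:**
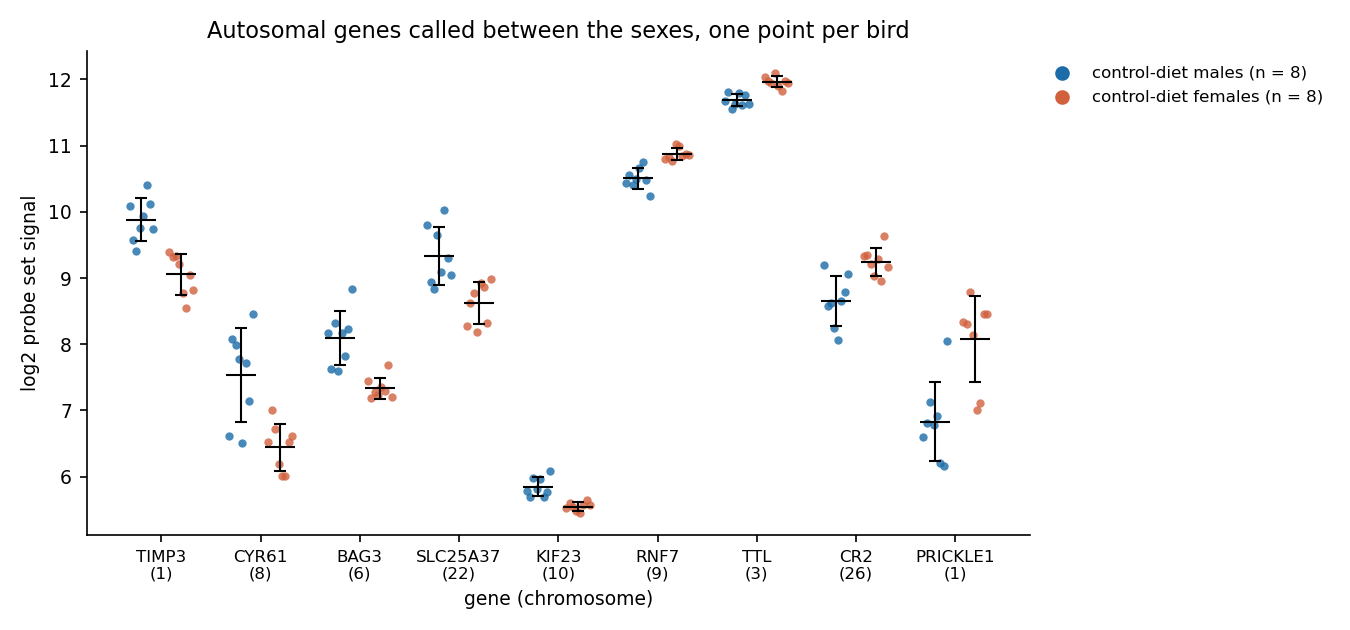
Log2 signal (vertical axis) of 9 autosomal genes called between the sexes (horizontal axis), with 1 point per bird, males left of females, and black bars for the mean ± SD of 8 birds. TIMP3, KIF23, RNF7 and TTL did not overlap between the sexes, while CYR61, BAG3, SLC25A37, CR2 and PRICKLE1 did.

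Thrombocyte markers varied widely between birds, and none passed between the sexes. The difference was positive in 10 of 11 autosomal thrombocyte markers, beside 48.4% of all autosomal probe sets, and its median was 0.63. In limma 0 were called, and 7 had an unadjusted p under 0.05, beside 862 of all 9772 autosomal probe sets. The markers were read in the same birds, so they do not count as separate replicates. With the block of birds the median was 0.25, and among comfrey-fed birds it was 0.29. ITGB3, an integrin chain of the clotting receptor, averaged 8.54 ± 0.81 in males and 7.55 ± 0.49 in females (0.99 ± 0.31, adjusted p 0.135). PLEK, pleckstrin, was at 9.29 ± 0.84 in males and 8.23 ± 0.50 in females (1.06 ± 0.32, adjusted p 0.115), and F13A1, clotting factor XIII, was at 9.34 ± 0.94 in males and 8.26 ± 0.63 in females (1.08 ± 0.37, adjusted p 0.189). Male bird 3 had the lowest value of all males in these 3 genes. Without that bird 6 of the 11 markers were called higher (F13A1, GP1BB, GP9, ITGB3, PLEK and TUBB1). Leaving out the lowest male raises the male mean in any case, and all autosomal higher calls rose from 24 to 76. F13A1, GP1BB, ITGB3 and PLEK were called in only this 1 of 16 leave-outs.

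The marker mean ran from 6.76 (median 7.98) to 8.35 in males and from 6.63 (median 7.28) to 7.77 in females, so the sexes overlapped. It averaged 6.96 in 2 males and 7.10 in 6 females of birds 1 to 16, and 7.99 in 6 males and 7.53 in 2 females of birds 17 to 32. With this mean as a covariate, chosen after seeing the data, 8 autosomal probe sets were called higher and 2 lower, and 8 of the original 42 remained. The part of thrombocytes in the autosomal differences was not tested beyond this fit. Of 8 autosomal serotonin and amine genes, 1 was called, HTR1B, beside 0.246% of all autosomal probe sets called higher. The difference was positive in 4 of the 8 and negative in 4, and the median was 0.30. The positive ones beside HTR1B were HTR2A at 1.20 ± 0.33, the transporter gene SLC6A4 at 1.08 ± 0.35 and the vesicle transporter gene SLC18A2 at 1.05 ± 0.36, none passing (adjusted p 0.0766, 0.171 and 0.199). The negative ones lay between -0.19 and -0.0094, lowest in TPH2, an enzyme of serotonin synthesis. SELE, an adhesion receptor, was at 1.04 ± 0.34 (adjusted p 0.168). Without male bird 3, HTR2A, SLC6A4 and SELE were called higher, as were GZMA, XCL1 and NMI. Of the 16 leave-outs, HTR2A was called in 2 and each of the others in 1.

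Interferon genes were high in 1 male. The difference was positive in 28 of 30 autosomal interferon response genes, beside 48.4% of all autosomal probe sets, and its median was 0.48. In limma 0 were called, while 9 had an unadjusted p under 0.05, beside 862 of all 9772 autosomal probe sets. These genes too were read in the same birds and are not separate replicates. The mean of the list was 11.34 in male bird 31, and ran from 8.76 to 9.64 in the other 7 males and from 8.87 to 9.36 in the females. CMPK2, a nucleotide kinase induced by interferon, was at 13.38 in bird 31, while the other males reached 11.22 and the females 11.03. Without bird 31 the median difference of the list was 0.21, with 25 of 30 positive. With the block of birds that median was 0.27 over all 16 birds, and among comfrey-fed birds it was 0.070. NMI, IFI6 and LY6E had differences of 1.20, 1.02 and 0.90 over all birds and did not pass (adjusted p 0.27, 0.269 and 0.234).

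No autosomal antigen presentation gene passed, while the mean of the list did not overlap between the sexes. The mean of 12 genes ran from 8.69 (median 8.74) to 8.95 in males, bird 31 highest, and from 8.50 (median 8.55) to 8.64 in females. The difference was positive in 11 of the 12, beside 48.4% of all autosomal probe sets, and the median was 0.16. In limma 0 were called and 1, TAPBPL, had an unadjusted p under 0.05, at 0.46 ± 0.16 (adjusted p 0.192). Over all autosomal probe sets 862 of 9772 had an unadjusted p under 0.05. The median without bird 31 was 0.11, and among comfrey-fed birds it was -0.029.

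**Figure D5:**
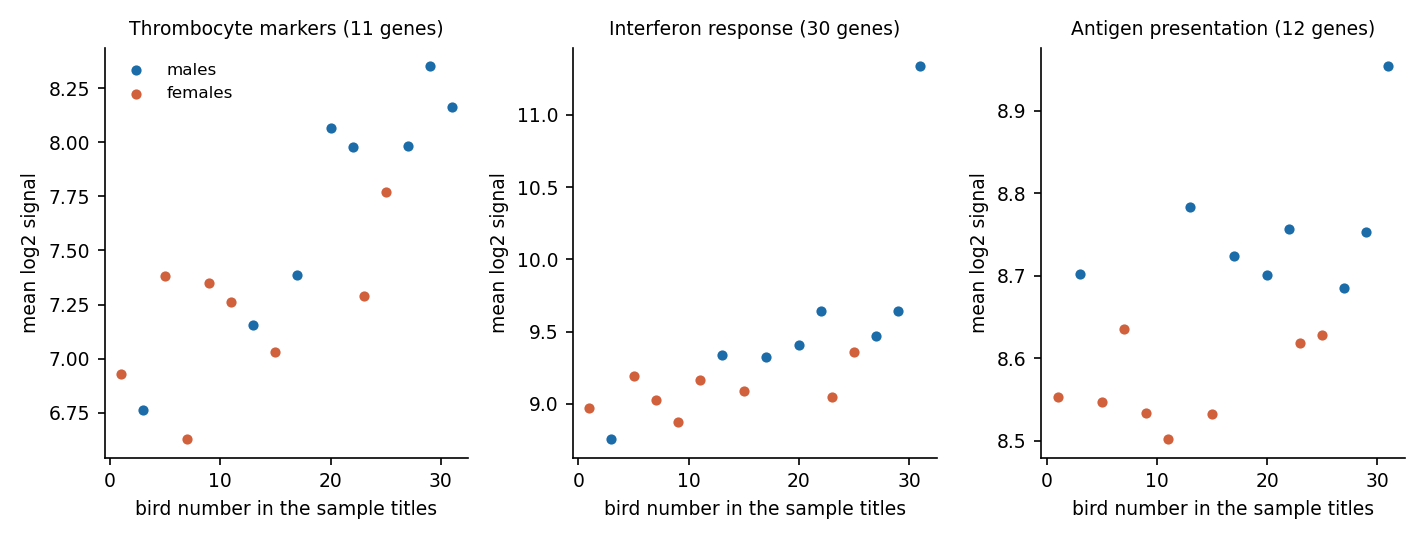
Mean log2 signal (vertical axes) of the autosomal thrombocyte, interferon response and antigen presentation genes in each control-diet bird, against the bird number in the sample titles (horizontal axes), males in blue and females in orange. Thrombocyte means are highest among the later birds, interferon means are set apart in male bird 31, and antigen presentation means do not overlap between the sexes.

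Other blood cell lists overlapped between the sexes. The heterophil mean was 7.95 ± 0.29 in males and 7.93 ± 0.14 in females, the T cell mean was 7.69 ± 0.19 in males and 7.59 ± 0.11 in females, and the erythroid mean was 10.59 ± 0.23 in males and 10.58 ± 0.12 in females (SD, n = 8 each). The cytotoxic cell mean was 5.95 ± 0.40 in males and 5.70 ± 0.13 in females, and XCL1, a chemokine of those cells, was at 0.82 ± 0.23 (adjusted p 0.0812). ATF4 and EGR1, transcription factors of the stress response, were at 0.45 ± 0.12 and 0.36 ± 0.11 and did not pass (adjusted p 0.0633 and 0.109).

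Most sex-linked calls and few autosomal calls were shared with the separate comfrey-fed birds. In these birds 530 probe sets were called (2.96%), 433 higher (2.42%) and 97 lower (0.542%) in males. Of the 388 calls in control birds, 293 were called the same way in comfrey-fed birds, which is 75.5% of the control calls and 55.3% of the comfrey calls. Among Z-linked higher calls 133 of 144 were shared, or 92.4% of the control calls and 77.8% of the comfrey calls, and all 8 W-linked calls were shared. Among autosomal calls 4 of 24 higher (16.7% of the control and 5.0% of the comfrey calls) and 1 of 18 lower (5.56% and 4.35%) were shared.

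The shared autosomal genes were BAG3, SEC61A2, AHSA2, METTL16 and WAPL, named as the full set of 5. AHSA2, an HSP90 cochaperone relative, differed by 0.44 in control and 0.68 in comfrey-fed birds, and METTL16, an RNA methyltransferase, by 0.37 in control and 0.46 in comfrey-fed birds. The sign was the same in both diets for 23 of the 24 and 16 of the 18. The 42 autosomal differences had a median size of 0.44 in control birds and, counted in the same direction, 0.20 in comfrey-fed birds, where they had not been selected. The brighter Z-linked median was 0.56 in control and 0.57 in comfrey-fed birds.

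A test of whether the sex difference itself differed between the diets gave 0 calls among 17894 probe sets (limma, lowest adjusted p 0.434). An unadjusted p under 0.05 was met by 1020 of them. Its median SE was 0.16, and passing the adjusted cut takes a difference of several SE. Differences between the diets well above 0.16 could therefore go uncalled for single genes. SLC25A37 and PRICKLE1, called on the control diet and not among comfrey-fed birds, had an interaction adjusted p of 0.834 and 0.847. SLC25A37 differed by 0.72 in control and -0.003 in comfrey-fed birds, and PRICKLE1 by -1.24 and 0.18. For SELENOP1, a Z-linked selenium carrier, the difference was 0.28 ± 0.10 in control birds (adjusted p 0.223) and 0.93 in comfrey-fed birds (adjusted p 6.14e-05), and the interaction had an adjusted p of 0.488.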

How the data were processed

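RNA from the blood of 32 birds was hybridised to Affymetrix arrays with the GeneChip WT PLUS kit, per the labels' protocols. The deposited log2 values were made by the authors with GCOS 1.1.1 and RMA, per the submitters' processing notes; the base 2 was read from the values (0.83 to 13.97). Of 20804 rows, 2910 blank in every array were left out and 17894 were tested without a filter, 824 of them repeats of other rows. Chromosomes and gene order came from a RefSeq table of GRCg7b. Among probe sets with 1 symbol, gene identifiers matched 9770, current symbols 474 and older symbols 15, and 5 had no match. Of the rest, 182 probe sets had several symbols and 7448 had none. No source used here states the array's own build.

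The main model was fitted to the 16 control arrays with limma 3.58.1 (lmFit, eBayes) in R 4.3.3, with two-sided p-values adjusted by Benjamini-Hochberg across every probe set tested. It was tested on simulated data. Summaries used Python 3.11.15 and pandas 2.3.3, and plots used matplotlib 3.10.9. A gene was represented by its brightest probe set. Alternatives were a signal filter of 5, repeats or unnamed probe sets left out, trend and robust eBayes, bird block or number, centring, repeated quantile normalization, all 32 arrays, array weights and leaving out each bird. The birds are separate animals.

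Members, lists and tests were chosen with earlier results of these data known. The pattern for cell cycle genes was corrected after the files were read, since it also matched CD antigens. Named genes were all on W, the 10 largest Z-linked and 10 largest autosomal calls each way (Z-linked lower calls up to 6), the 6 lowest brighter Z-linked genes, up to 6 non-overlapping autosomal genes each way, up to 4 list members by smallest p under 0.05, and Z-linked partners of W genes.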

Additional observations from a re-analysis of the deposited data

Results flagged for a closer look

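Single birds stood apart from the other 7 of their sex in 21 of 272 groups of 8 values examined, and chance alone flags about 1 in 20 such groups. No explanation was tested. Male bird 31 accounted for 6 of the 21. It was highest for the interferon response mean (11.34, next 9.64), the antigen presentation mean (8.95, next 8.78), CMPK2 (13.38, next 11.22), LY6E (10.13, next 8.30) and ERAP1 (11.79, next 10.93), and lowest for RPS23 (10.18, next 10.44). ERAP1 lies on Z and also belongs to antigen presentation. Its difference between the sexes was 0.94 with all birds.

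Male bird 13 was highest for NCAPH (7.08, next 6.57), TLE4 (8.78, next 8.44) and ST8SIA3L (4.00, next 3.56). Other males apart were bird 22, highest for UBAP2L2 at 6.01, bird 29, lowest for SSBP2 at 8.29, bird 20, highest for DNAJA1 at 12.11, and bird 27, highest for ATF4 at 10.46.

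Among females, bird 1 was lowest for HINTW (11.65, next 12.12) and for LY6E (6.56, next 7.02), and its HINTW was still far above every male. Bird 25 was highest for TCF7L2 (6.08) and HTR1B (7.13). Bird 15 was lowest for MBD2 (8.17) and highest for GSTK1 (5.41, next 3.96). Bird 5 was highest for FUT10 (6.43), and bird 9 was lowest for ZSWIM8 (7.28).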

How the results depend on the processing

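The W-linked counts and the brighter Z-linked and autosomal medians stayed close to their values under the alternatives run, while the autosomal counts moved under some of them. Autosomal higher and lower calls were 30 and 22 with the signal filter, 19 and 15 without repeats, and 21 and 18 with only single-symbol probe sets. They were 23 and 23 with trend and robust eBayes, 32 and 20 with repeated quantile normalization, and 35 and 21 with array weights. Z-linked higher calls, 144 as reported, were 116 with the block of birds, 121 with bird number and 162 with all 32 arrays. They were 122 with the thrombocyte mean and 125 with the interferon mean as covariate. The total of 388 called probe sets was 271 and 281 with the block and bird number, and 492 with all 32 arrays. It was 269 and 281 with the thrombocyte and interferon means, and 194 with only single-symbol probe sets tested, where fewer rows enter. Autosomal calls, 24 higher and 18 lower in males, were 10 and 6 with the block of birds, 7 and 7 with bird number, 39 and 46 with all 32 arrays, 8 and 2 with the thrombocyte mean and 9 and 6 with the interferon mean as covariate (both chosen after seeing the data), and 31 were lower with centred arrays. The cause was not tested. Leaving out each bird gave 321 to 464 calls in all, 134 to 149 Z-linked higher, 8 W-linked lower in each case, 11 to 76 autosomal higher, 8 to 21 autosomal lower, a brighter Z-linked median of 0.53 to 0.57 and a brighter autosomal median of -0.0066 to 0.0047. Genes near 0 changed sign: CNTFR to 0.0038 with the block, 0.026 with bird number and 0.030 with the thrombocyte mean, MIR1584 to 0.084 and 0.044, and MIR1631 to 0.037 and 0.0075 with the block and bird number. Without single birds LOC426220 ran from -0.026 to 0.091, LOC425347 from -0.11 to 0.0071, MIR1584 from -0.12 to 0.016 and MIR1631 from -0.12 to 0.0052. No paired analysis was possible because the labels give no replicate numbers that tie males to females. Dim probe sets, where Z-linked differences were small, limit what can be read of weakly expressed genes.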
